A study of Mus musculus with 24 samples.

Results

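The 6 tumors of the 3 BALB/c mice that received decitabine at 2 mg/kg were analysed, out of 24 tumors of 12 mice in the series. They were chosen by their treatment label, and tumor 1 was set against tumor 2 within mouse 7, mouse 10 and mouse 16. The mice were female, aged 7 to 9 weeks when obtained, and were inoculated subcutaneously in both flanks with CT26 cells, here the CT26.CL25 line, a mouse colon carcinoma line that carries a bacterial reporter gene. After bilateral tumors had formed, 1 of them was excised. From 3 days after the surgery, decitabine was injected into the peritoneum on 5 consecutive days, and the remaining tumor was taken 4 days after the last dose. Both tumors of a mouse carry the treatment label, although by this protocol the excised tumor was never exposed to the drug. The labels number the tumors without saying which one was excised, so that no value below stands for before or after treatment: "gained" means found in tumor 2 and not in tumor 1, and "lost" the reverse. Passage of time, drug and surgery cannot be told apart within a pair. Of the other groups, 3 mice were given 0.5 mg/kg on the same schedule. A further 3 untreated mice had the same surgery (time-separated), and 3 untreated mice had both tumors taken at the same time (time-matched). These groups were used only for overlap, the common depth, clonotypes found in other mice, TRBV17 with 1 family of its receptors, and non-functional sequences.

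A T cell receptor is a pair of an α and a β chain, each assembled in the thymus by joining 1 of many variable (V) segments to 1 of many joining (J) segments, with a diversity segment between them in the β chain. Bases are trimmed and added at the joint, which forms complementarity determining region 3 (CDR3), the loop that mostly touches the peptide held by the major histocompatibility complex. All descendants of a T cell inherit its rearrangements, so a clonotype, defined here by CDR3 amino acid sequence, V segment and J segment, serves as a tag for a clone and its share as a measure of how far that clone has expanded. Decitabine is a cytidine analog that is incorporated into DNA and depletes DNA methyltransferases, and it is known for its action on tumor cells and on the differentiation of T cells.

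The measurement was the number of sequencing counts of each TCRβ and TCRα sequence in RNA of a whole tumor, so fewer T cells of a clone and less receptor RNA per cell cannot be told apart. After sequences with a stop codon or out of frame and those with fewer than 2 counts were removed, the 6 TCRβ libraries held 64192 to 887567 counts in 777 to 3264 clonotypes, and the 6 TCRα libraries 26623 to 236622 counts in 515 to 2818 clonotypes. Tumor 2 of mouse 7 was the shallowest on both chains. A count of 0 therefore allowed a share of up to 0.00467% for TCRβ and 0.0113% for TCRα in that tumor (3 counts of the library), against 0.00106% and 0.00135% in tumor 1 of the same mouse. Of the retained sequences of a library, 31.9% to 48.6% (TCRβ) and 31.2% to 46.8% (TCRα) lay 1 base from a sequence with the same V, J and length that had at least 100 times their counts, as copying errors of an abundant sequence would. They weigh little in shares of counts but much in numbers of clonotypes. Numbers of clonotypes below include them unless they are said to be merged. Each tumor overlapped more with its partner than with any tumor of a different mouse: the Morisita-Horn index (1 for identical shares, 0 for none in common) was 0.547 to 0.939 within mice and at most 0.132 between a tumor of these mice and one of another mouse. As a check for a library deposited more than once, the chi-square per degree of freedom over clonotypes between the tumors of a mouse was 38.4 to 192, and no pair was within counting noise.

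The dominant clonotypes were held in common by both tumors of every mouse, but their order was not. Those among the 10 largest of either tumor numbered 39 for TCRβ over the 3 mice, and all 39 of them were found in both tumors. Of these, 14 were over 2-fold higher in tumor 2 and 8 over 2-fold lower. For TCRα the same held for 44 of 44 clonotypes, with 19 higher and 13 lower. Each tumor gave 1 library per chain, so these are comparisons of 2 libraries with no replicate; the intervals given are exact 95% Clopper-Pearson intervals and cover counting error only. As a background, among all TCRβ clonotypes of at least 0.01% in either tumor, the share over 2-fold higher in tumor 2 in mice 7, 10 and 16 was 29.4%, 14.1% and 25.0%, and the share over 2-fold lower was 61.0%, 76.5% and 48.3%. For TCRα the shares were 25.1%, 17.8% and 31.7% higher and 23.3%, 74.5% and 55.2% lower. A clonotype absent from a tumor was set to 3 counts there for these ratios. The dominant TCRβ clonotypes over 2-fold higher and lower numbered 5 and 3 of 13 in mouse 7, 5 and 1 of 13 in mouse 10 and 4 and 4 of 13 in mouse 16, and the TCRα clonotypes 5 and 4 of 15, 8 and 4 of 14 and 6 and 5 of 15. The share lower in tumor 2 was thus below the background on both chains of mice 10 and 16 and for TCRβ of mouse 7. For TCRα of mouse 7 it is not compared, because 3 counts in tumor 2 (0.0113%) lie above the 0.01% minimum, so absent clonotypes close to that minimum could not count as 2-fold lower. The share higher was above it, by least in TCRβ of mouse 16 and TCRα of mice 7 and 16.

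**Figure D1:**
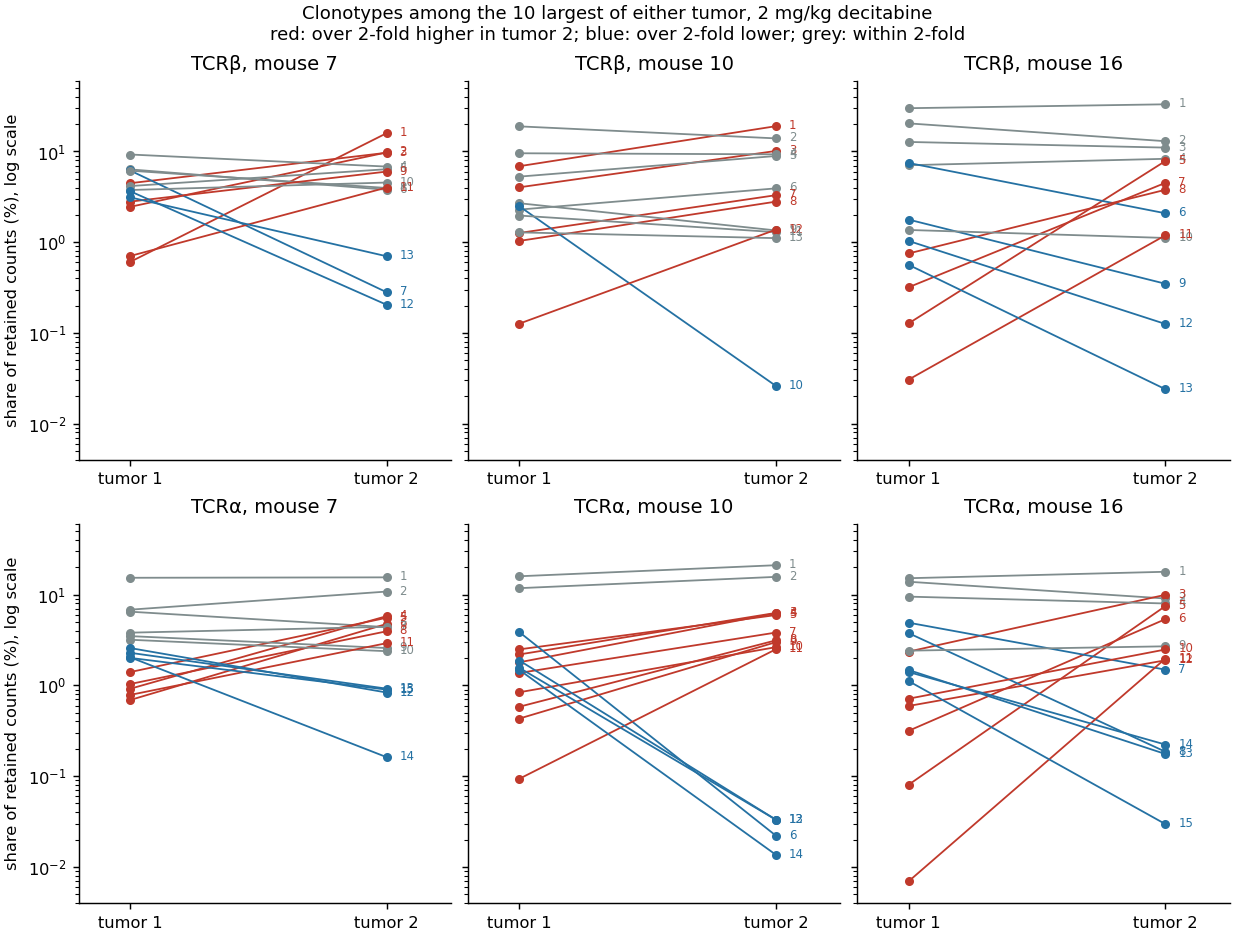
Shares of retained counts (vertical log axis, percent) in tumor 1 and tumor 2 of each mouse for the clonotypes among the 10 largest of either tumor, TCRβ above and TCRα below, 1 line per clonotype with its rank by the higher of its shares beside it. Red lines are over 2-fold higher in tumor 2, blue lines over 2-fold lower and grey lines within 2-fold, and blue lines reach further down in tumor 2 of mouse 10 than of mouse 7 on both chains.

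The CDR3 sequences of the TCRβ clonotypes that led a tumor, and of some others that moved, are printed from the deposited tables. They run 5′ to 3′ and are the most abundant nucleotide sequence of the clonotype. Capitals mark the codons between the first 3 and the last 3 residues, the middle of the loop. Clonotypes of 15 or more residues are named by segments and length.
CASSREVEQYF of mouse 7: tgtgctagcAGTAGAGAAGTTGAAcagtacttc
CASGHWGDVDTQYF of mouse 7: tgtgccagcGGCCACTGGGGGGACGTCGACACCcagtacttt
TRBV13-3/TRBJ1-6 clonotype of 15 residues of mouse 7: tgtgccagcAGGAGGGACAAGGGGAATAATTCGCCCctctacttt
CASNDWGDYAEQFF of mouse 7: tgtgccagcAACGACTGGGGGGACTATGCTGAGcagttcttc
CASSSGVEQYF of mouse 10: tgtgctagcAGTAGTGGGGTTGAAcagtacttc
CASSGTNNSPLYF of mouse 10: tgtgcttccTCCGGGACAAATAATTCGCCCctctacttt
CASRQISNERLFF of mouse 10: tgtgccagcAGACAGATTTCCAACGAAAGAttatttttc
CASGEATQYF of mouse 16: tgtgccagcGGTGAGGCCACCcagtacttt
TRBV13-1/TRBJ2-4 clonotype of 16 residues of mouse 16: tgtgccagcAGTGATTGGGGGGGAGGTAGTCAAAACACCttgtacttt
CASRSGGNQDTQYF of mouse 16: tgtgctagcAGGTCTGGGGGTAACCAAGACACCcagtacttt

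In mouse 7 the leader changed. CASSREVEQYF (TRBV17/TRBJ2-7) made up 0.606% of tumor 1 and 15.9% of tumor 2, with intervals of 0.578% to 0.635% and 15.7% to 16.2%. It had the largest gain in percentage points in this mouse, a 26.3-fold higher share, and rank 24 in tumor 1 and rank 1 in tumor 2. The leader of tumor 1, the TRBV13-3/TRBJ1-6 clonotype of 15 residues, held 9.26% of tumor 1 and 6.82% of tumor 2 and had rank 4 in tumor 2. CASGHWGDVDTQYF (TRBV13-1/TRBJ2-5) held 2.45% of tumor 1 and 9.77% of tumor 2, and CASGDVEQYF (TRBV13-2/TRBJ2-7) 4.47% of tumor 1 and 9.69% of tumor 2. Both were over 2-fold higher in tumor 2. The largest loss in points was that of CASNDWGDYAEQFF (TRBV13-1/TRBJ2-1), of rank 3 in tumor 1, with 6.17% of tumor 1 and 0.280% of tumor 2, 22.0-fold lower. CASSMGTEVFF (TRBV19/TRBJ1-1) was lower too, at 3.65% of tumor 1 and 0.204% of tumor 2. The pair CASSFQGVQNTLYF (TRBV29/TRBJ2-4) and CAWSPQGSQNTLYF (TRBV31/TRBJ2-4), which share most of their J-encoded end, stayed within 2-fold, at 6.35% in tumor 1 and 3.79% in tumor 2 and at 3.76% in tumor 1 and 4.55% in tumor 2. The TRBV13-1/TRBJ2-1 clonotype of 15 residues, of rank 4 in tumor 1, held 6.15% of tumor 1 and 3.96% of tumor 2. Summed, the 10 largest clonotypes held 49.9% of tumor 1 and 70.9% of tumor 2, and 7 clonotypes were among the 10 largest of both.

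In mouse 10 the lead passed from a TRBV17/TRBJ1-6 to a TRBV17/TRBJ2-7 clonotype. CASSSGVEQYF (TRBV17/TRBJ2-7) held 6.89% of tumor 1 and 19.0% of tumor 2, a 2.76-fold higher share, with intervals of 6.80% to 6.97% and 18.9% to 19.1%. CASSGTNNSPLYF (TRBV17/TRBJ1-6) held 18.9% of tumor 1 and 13.9% of tumor 2; it had led tumor 1 and had the largest loss in percentage points of the largest clonotypes, at 4.98 points. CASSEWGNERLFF (TRBV13-1/TRBJ1-4) was higher in tumor 2, at 4.03% in tumor 1 and 10.1% in tumor 2. The TRBV4/TRBJ2-1 clonotype of 15 residues was nearly level, at 9.56% in tumor 1 and 9.31% in tumor 2, and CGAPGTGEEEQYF (TRBV20/TRBJ2-7) held 5.28% of tumor 1 and 8.92% of tumor 2. As a fold, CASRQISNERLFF (TRBV13-3/TRBJ1-4), of rank 7 in tumor 1, was the lowest of them in tumor 2 relative to tumor 1, with 2.49% of tumor 1 and 0.0260% of tumor 2, or 8261 against 105 counts. In the other direction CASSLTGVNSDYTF (TRBV29/TRBJ1-2) went from 0.127% in tumor 1 to 1.38% in tumor 2. The 10 largest held 55.4% of tumor 1 and 74.1% of tumor 2.

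In mouse 16 the first 3 places stayed with the same clonotypes. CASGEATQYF (TRBV13-2/TRBJ2-5) was the largest clonotype of any of these 6 TCRβ libraries, with 30.0% of tumor 1 and 33.1% of tumor 2. The TRBV13-1/TRBJ2-4 clonotype of 16 residues held 20.4% of tumor 1 and 13.0% of tumor 2, the largest loss in percentage points here (7.42), and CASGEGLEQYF (TRBV13-2/TRBJ2-7) 12.7% of tumor 1 and 11.0% of tumor 2. Below them the order changed. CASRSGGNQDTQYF (TRBV17/TRBJ2-5) was 61.5-fold higher in tumor 2, at 0.128% in tumor 1 and 7.85% in tumor 2, with intervals of 0.120% to 0.135% and 7.77% to 7.94%. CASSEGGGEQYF (TRBV13-1/TRBJ2-7) had rank 125 in tumor 1 and rank 9 in tumor 2, at 0.0306% in tumor 1 and 1.19% in tumor 2. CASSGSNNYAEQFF (TRBV13-3/TRBJ2-1), of rank 4 in tumor 1, held 7.46% of tumor 1 and 2.08% of tumor 2, and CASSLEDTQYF (TRBV17/TRBJ2-5) 0.562% of tumor 1 and 0.0240% of tumor 2, a 23.5-fold lower share and the lowest ratio among the largest clonotypes of the mouse. The 10 largest held 83.1% and 86.0% of the tumors. Mouse 16 was thus the most concentrated of the 3 in both tumors, and 50% of its TCRβ counts lay in 2 clonotypes in tumor 1 and 3 in tumor 2, whereas it took 11 and 6 to reach it in the tumors of mouse 7 and 8 and 4 in those of mouse 10.

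The other dominant TCRβ clonotypes gave the same mixed picture. In mouse 7, 2 further TRBJ2-7 clonotypes were over 2-fold higher in tumor 2, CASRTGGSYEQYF (TRBV13-1) at 2.80% in tumor 1 and 6.01% in tumor 2 and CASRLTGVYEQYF (TRBV14) at 0.704% in tumor 1 and 4.01% in tumor 2. In mouse 10, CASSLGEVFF (TRBV29/TRBJ1-1) held 1.03% of tumor 1 and 2.80% of tumor 2, and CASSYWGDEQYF (TRBV4/TRBJ2-7) 2.69% of tumor 1 and 1.35% of tumor 2. In mouse 16, the TRBV13-1/TRBJ2-4 clonotype of 15 residues was 14.1-fold higher in tumor 2, at 0.319% in tumor 1 and 4.51% in tumor 2, unlike the clonotype of 16 residues with the same segments. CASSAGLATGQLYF (TRBV13-1/TRBJ2-2) and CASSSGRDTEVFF (TRBV17/TRBJ1-1) were lower in tumor 2 of mouse 16, at 1.77% in tumor 1 and 0.348% in tumor 2 and at 1.03% in tumor 1 and 0.125% in tumor 2. By segment, 11 of the 39 used TRBJ2-7, of which 6, most of them of mouse 7, were over 2-fold higher in tumor 2 and 0 over 2-fold lower. Of all 39, 14 were higher and 8 lower. TRBV17 was used by 10, of which 3 were higher and 3 lower, and TRBV13-1 by 11, with 5 higher and 2 lower. Other segments of at least 3 of these clonotypes also had only one direction past 2-fold: TRBV29 (4 clonotypes, 3 higher), TRBV13-2 (3, 1 higher) and TRBJ2-4 (4, 1 higher) had none lower, and TRBV13-3 (3, 2 lower) and TRBJ2-1 (5, 2 lower) had none higher.

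TRBV17 joined to TRBJ2-7 with a CDR3 of 11 residues recurred among the leaders of all 3 mice: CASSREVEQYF and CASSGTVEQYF in mouse 7, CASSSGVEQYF in mouse 10 and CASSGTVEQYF in mouse 16 differ only at residues 5 and 6. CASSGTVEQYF held 4.16% in tumor 1 and 6.38% in tumor 2 in mouse 7, and 7.06% in tumor 1 and 8.31% in tumor 2 in mouse 16. Its most abundant nucleotide sequence was not the same in these mice. The sequences are shown to set out how the same residues were encoded, with the 3 bases that differ between the mice in capitals.
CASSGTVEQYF of mouse 7: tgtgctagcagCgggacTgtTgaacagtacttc
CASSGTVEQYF of mouse 16: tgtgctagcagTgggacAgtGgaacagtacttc
The choice of this family was made after the largest clonotypes had been seen, so its values are given without a test. Summed over its members, its share in mouse 7 was 5.26% in tumor 1 and 24.6% in tumor 2. Mouse 10 had 7.27% and 20.3%, and mouse 16 had 7.43% and 8.70%. It was higher in tumor 2 of all 3 mice. Without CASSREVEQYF and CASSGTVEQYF, which led it in tumor 2 and tumor 1, the rest of the family held 0.498% and 2.27% of the tumors of mouse 7. Without its leader it held 0.381% and 1.24% in mouse 10 and 0.376% and 0.396% in mouse 16, so in these mice the family was close to a single clonotype. Elsewhere in the series the family ranged from 0.00346% in tumor 2 of mouse 6 (time-matched) to 25.7% in tumor 2 of mouse 17 (time-separated untreated), where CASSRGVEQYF led it, and it was higher in tumor 2 of 1 of 3 mice in each of the other groups. The level in these 6 tumors therefore lay within the range of the untreated tumors.

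**Figure D2:**
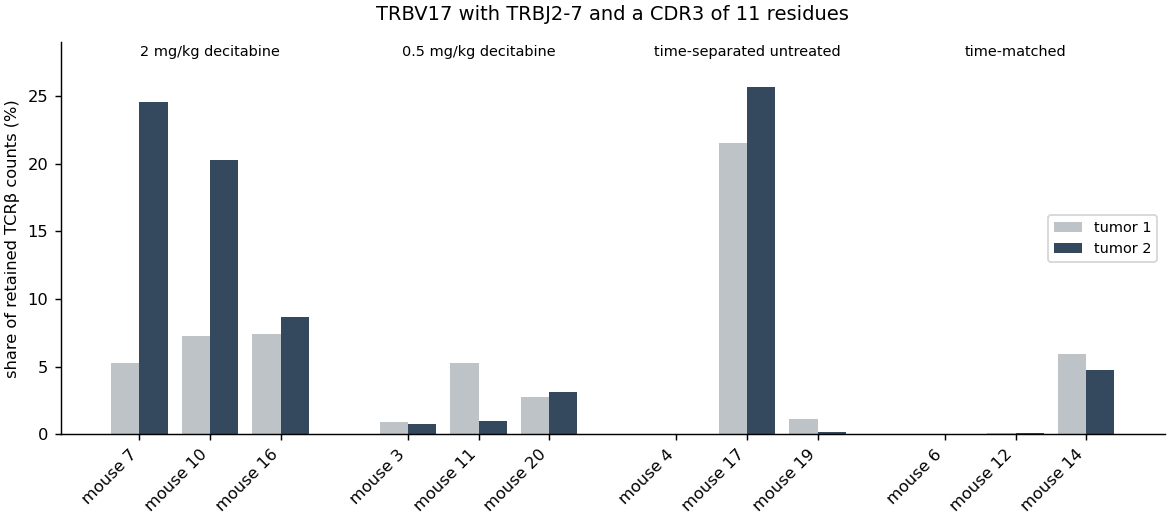
Summed share of TCRβ counts (vertical axis, percent) of TRBV17 with TRBJ2-7 and a CDR3 of 11 residues in tumor 1 (light bars) and tumor 2 (dark bars) of all 12 mice, in groups. The dark bar is the higher one in all 3 mice given 2 mg/kg, and the bars of untreated mouse 17 reach 21.6% and 25.7%.

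On the TCRα chain the leader was the same clonotype in both tumors of each mouse, whereas the ranks below it changed. In mouse 7, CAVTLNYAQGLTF (TRAV7-3/TRAJ26) held 15.4% of tumor 1 and 15.5% of tumor 2. In mouse 10, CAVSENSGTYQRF (TRAV3-3/TRAJ13) held 16.0% of tumor 1 and 21.1% of tumor 2, and in mouse 16 the TRAV9D-4/TRAJ53 clonotype of 15 residues held 15.2% of tumor 1 and 17.9% of tumor 2. The sequences of these and of some other TCRα clonotypes that were higher or lower in tumor 2, marked as before, are as follows.
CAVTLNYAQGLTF of mouse 7: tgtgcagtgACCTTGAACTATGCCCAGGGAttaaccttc
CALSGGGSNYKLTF of mouse 7: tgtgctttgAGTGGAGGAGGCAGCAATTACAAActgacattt
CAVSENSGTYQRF of mouse 10: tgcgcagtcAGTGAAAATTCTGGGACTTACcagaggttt
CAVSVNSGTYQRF of mouse 10: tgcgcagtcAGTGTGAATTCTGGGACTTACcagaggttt
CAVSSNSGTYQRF of mouse 10: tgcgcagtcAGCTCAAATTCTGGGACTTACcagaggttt
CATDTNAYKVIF of mouse 10: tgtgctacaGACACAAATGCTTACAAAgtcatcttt
TRAV9D-4/TRAJ53 clonotype of 15 residues of mouse 16: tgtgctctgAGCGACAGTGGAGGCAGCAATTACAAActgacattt
TRAV9-2/TRAJ32 clonotype of 16 residues of mouse 16: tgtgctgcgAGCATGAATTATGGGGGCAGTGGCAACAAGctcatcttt
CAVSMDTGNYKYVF of mouse 16: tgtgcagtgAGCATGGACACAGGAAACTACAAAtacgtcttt

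In mouse 7, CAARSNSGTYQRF (TRAV7-4/TRAJ13) was second in both tumors, at 6.83% in tumor 1 and 10.8% in tumor 2. The largest gain in points was that of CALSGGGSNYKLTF (TRAV12-2/TRAJ53), at 0.918% in tumor 1 and 5.81% in tumor 2, followed by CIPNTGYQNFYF (TRAV21/DV12 with TRAJ49) at 1.40% in tumor 1 and 5.57% in tumor 2 and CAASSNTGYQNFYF (TRAV5-4/TRAJ49) at 0.690% in tumor 1 and 4.76% in tumor 2. The latter clonotypes share TRAJ49, yet another TRAJ49 clonotype, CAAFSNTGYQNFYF (TRAV9-2), had the lowest ratio of tumor 2 to tumor 1 among the 10 largest clonotypes of either tumor, at 2.04% in tumor 1 and 0.162% in tumor 2. The TRAV14-1/TRAJ53 clonotype of 15 residues stayed near its level, at 3.81% in tumor 1 and 4.42% in tumor 2. The largest loss in points was that of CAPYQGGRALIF (TRAV3-3/TRAJ15), at 6.49% in tumor 1 and 4.39% in tumor 2.

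In mouse 10, 4 TRAV3-3/TRAJ13 clonotypes of 13 residues that differ only at residue 5 were among the 20 largest of a tumor. Beside the leader, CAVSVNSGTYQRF held 2.5% of tumor 1 and 5.96% of tumor 2, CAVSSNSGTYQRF 1.37% of tumor 1 and 3.82% of tumor 2 and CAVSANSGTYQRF 0.765% and 0.867%. All 4 had a higher share in tumor 2, the first and the last by less than 2-fold. Their main sequences differed from that of the leader by 1 to 3 bases. Whether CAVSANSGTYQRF, 1 base away, is a copying error of the leader was not tested. The TRAV15D-1/DV6D-1 clonotype of 15 residues with TRAJ34 was second in both tumors, at 11.8% in tumor 1 and 15.7% in tumor 2. The TRAV9-1/TRAJ5 clonotype of 15 residues was of rank 3 in tumor 2, at 2.19% in tumor 1 and 6.30% in tumor 2. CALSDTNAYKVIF (TRAV12-1/TRAJ30) held 1.8% of tumor 1 and 6.24% of tumor 2, whereas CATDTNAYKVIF, which joins TRAV8-2 to the same TRAJ30 end, was of rank 3 in tumor 1 and nearly lost in tumor 2, at 3.86% in tumor 1 and 0.0220% in tumor 2 (8209 against 52 counts, 176-fold lower). A further 3 of the 10 largest of tumor 1 were below 0.1% in tumor 2, namely the TRAV1/TRAJ32 clonotype of 15 residues (1.88% in tumor 1 and 0.0330% in tumor 2), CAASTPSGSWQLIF (1.56% in tumor 1 and 0.0330% in tumor 2) and the TRAV3-3/TRAJ5 clonotype of 15 residues (1.48% in tumor 1 and 0.0135% in tumor 2).

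In mouse 16, the TRAV9-2/TRAJ32 clonotype of 16 residues was 93.0-fold higher in tumor 2, at 0.0806% in tumor 1 and 7.49% in tumor 2, and the largest gain in points was that of the TRAV16D/DV11 clonotype of 15 residues with TRAJ17, at 2.36% in tumor 1 and 9.97% in tumor 2. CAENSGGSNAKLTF (TRAV7-1/TRAJ42) held 0.316% of tumor 1 and 5.37% of tumor 2. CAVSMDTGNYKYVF (TRAV7-3/TRAJ40) had the greatest fold of all dominant clonotypes on either chain, 284-fold, from 15 counts (0.00694%) in tumor 1 to 2671 (1.98%) in tumor 2. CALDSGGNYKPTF (TRAV6-4/TRAJ6) was of rank 2 in tumor 1 and rank 3 in tumor 2, at 13.9% in tumor 1 and 9.07% in tumor 2. The TRAV9D-4/TRAJ42 clonotype of 15 residues held 9.51% of tumor 1 and 8.0% of tumor 2. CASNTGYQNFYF (TRAV8-1/TRAJ49), of rank 5 in tumor 1, held 3.76% of tumor 1 and 0.186% of tumor 2. TRAV segments with a D or N in their name belong to near-identical copies of the locus, so the assignment between copies is uncertain. The chains were sequenced apart, and which α chain belonged to which β chain was not measured.

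Further TCRα clonotypes shared their J-encoded end across mice. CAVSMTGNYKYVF in mouse 10 and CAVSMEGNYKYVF in mouse 16, both TRAV9-3/TRAJ40 and different only at residue 6, held 0.582% of tumor 1 and 3.14% of tumor 2 in mouse 10 and 2.41% of tumor 1 and 2.70% of tumor 2 in mouse 16. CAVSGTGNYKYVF (TRAV3-3/TRAJ40) in mouse 16 was lower in tumor 2, at 1.48% in tumor 1 and 0.175% in tumor 2. In mouse 10, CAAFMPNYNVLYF (TRAV4-3/TRAJ21) and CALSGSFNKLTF (TRAV16D/DV11 with TRAJ4) were 6.96-fold and 26.8-fold higher in tumor 2, the latter from 0.0936% to 2.51%. In mouse 16, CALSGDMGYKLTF (TRAV9D-4/TRAJ9) held 4.91% of tumor 1 and 1.49% of tumor 2, and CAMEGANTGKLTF (TRAV13-4/DV7 with TRAJ52) 1.40% of tumor 1 and 0.223% of tumor 2. Clonotypes that differ at a single residue from another of the 20 largest were also found on the β chain, always at residue 5. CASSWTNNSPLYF of mouse 10, 1 base from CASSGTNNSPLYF, held 1.18% and 0.808% and was lower in tumor 2 like it. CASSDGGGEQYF of mouse 16, 2 bases from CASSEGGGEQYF, held 0.0373% and 0.790% and was higher in tumor 2 like it. Related clonotypes did not always move together. A TRBV13-1/TRBJ2-5 pair of 16 residues in mouse 7 held 1.08% and 2.34% against 1.39% and 0.441% of tumors 1 and 2, and a TRAV6-6/TRAJ53 pair of 15 residues in the same mouse 0.785% and 2.92% against 1.15% and 0.402%.

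What differed between the tumors of a mouse was mostly small, and whether a clonotype was found again varied with its size. Clonotypes of at least 1% of tumor 1 were found in tumor 2 in 39 of 40 cases for TCRβ and in 38 of 40 for TCRα. In the reverse direction it was 38 of 38 and 44 of 44. Among TCRβ clonotypes of 0.1% to 1%, 76.7%, 60% and 92.9% of those of tumor 1 were found in tumor 2 of mice 7, 10 and 16, against 96.4%, 86.0% and 90% of those of tumor 2 in tumor 1. At 0.01% to 0.1% the gap was wider. Only 19.9% (128 of 644), 19.5% (159 of 814) and 58.3% (186 of 319) of such clonotypes of tumor 1 were found in tumor 2, against 59.7%, 72.1% and 70% in the reverse direction. TCRα gave 17.4%, 21.3% and 31.9% against 66.7%, 58.5% and 48.6%. With near-identical sequences merged, all of these shares were lower, at 13.9%, 12.2% and 44.4% against 48.4%, 48.5% and 58.5% for TCRβ, and the order was kept in each mouse on both chains. Tumor 2 was the shallower library in mice 7 and 16 and the deeper one in mouse 10 (404331 against 332368 TCRβ counts), and the part of depth in these shares was not tested. Seen by level, the TCRβ clonotypes of 0.1% to 1% in tumor 1 of mouse 10 had a median log2 ratio of -6.62 in tumor 2, with absent ones set to 3 counts, and those of mice 7 and 16 -2.49 and -1.74. Those of 0.1% to 1% in tumor 2 had -1.62, -0.78 and -1.53 in tumor 1 of mice 10, 7 and 16.

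**Figure D3:**
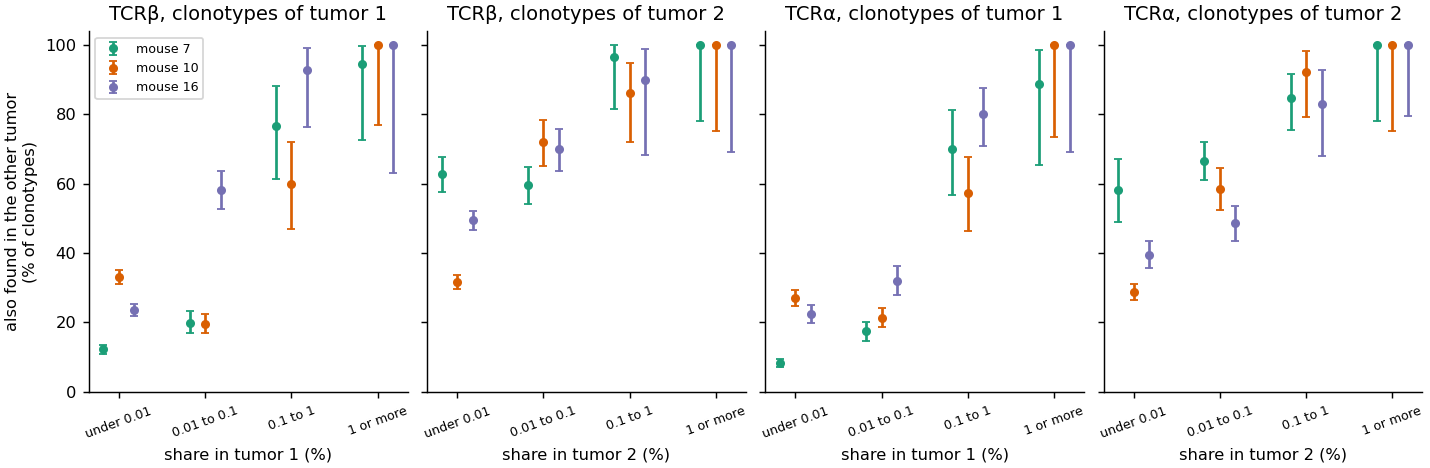
Percent of clonotypes of a tumor that were also found in the other tumor of the mouse (vertical axis) by their share in the tumor named above each panel (horizontal axis, percent of retained counts), with exact 95% intervals over clonotypes, 1 colour per mouse. All points of 1% or more lie above 85%, and points of 0.01% to 0.1% lie lower for clonotypes of tumor 1 than for those of tumor 2 in each mouse.

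Over all retained TCRβ counts, 2772 clonotypes were lost, 285 gained and 492 kept in mouse 7. The numbers lost, gained and kept were 2095, 1626 and 909 for mouse 10 and 2162, 737 and 844 for mouse 16. These numbers depend on depth, which was unequal. At equal depth mouse 10 had 1611 lost, 1072 gained and 535 kept clonotypes and mouse 16 had 941, 617 and 442, so that the excess of lost over gained in mouse 16 was much smaller. With near-identical sequences merged as well, the numbers were 1349, 816 and 243 for mouse 10 and 784, 449 and 278 for mouse 16, and 1781, 242 and 200 for mouse 7. The lost ones held 21.0%, 23.0% and 5.39% of the counts of tumor 1, and the gained ones 5.22%, 5.05% and 3.07% of those of tumor 2. For TCRα they held 26.3%, 29.2% and 15.3% against 6.39%, 5.45% and 9.05%. The share in clonotypes of 1 tumor was thus higher in tumor 1 of every mouse on both chains. Single lost clonotypes were small but not trivial. The largest lost TCRβ clonotype was the TRBV5/TRBJ1-2 clonotype of 16 residues in mouse 7, with 3410 counts or 1.20% of tumor 1, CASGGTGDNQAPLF (TRBV13-2/TRBJ1-5) in mouse 10 with 0.421%, and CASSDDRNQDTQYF (TRBV13-3/TRBJ2-5) in mouse 16 with 0.160%. None of these had a single count in tumor 2 even before the filters. A count of 0 there allows at most 0.00467%, 0.000742% and 0.000741%, so they were at least 257-fold, 567-fold and 216-fold lower. The largest gained ones were the TRBV31/TRBJ2-2 clonotype of 16 residues at 0.137% in mouse 7, the TRBV17/TRBJ2-1 clonotype of 15 residues at 0.231% in mouse 10 and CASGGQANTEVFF (TRBV13-2/TRBJ1-1) at 0.125% in mouse 16, the last with 1 count in tumor 1 before the filters. For TCRα, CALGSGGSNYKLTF (TRAV12-1/TRAJ53) was lost in mouse 7 at 1.22% and the closely similar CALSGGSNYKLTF, built from the same segments, was gained in mouse 16 at 0.677%. The other largest TCRα clonotypes of a single tumor lay between 0.203% and 0.646%.

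A few clonotypes were among the 20 largest in more than 1 of the mice, and most had no common direction. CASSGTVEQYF, described above, was higher in tumor 2 of both mice 7 and 16. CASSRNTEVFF (TRBV17/TRBJ1-1) held 3.12% in tumor 1 and 0.699% in tumor 2 in mouse 7 but 0.0969% in tumor 1 and 0.475% in tumor 2 in mouse 10, and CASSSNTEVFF, which differs from it at residue 5, had 0.861% and 0.0358% of the tumors of mouse 7 but 0.0671% and 0.575% of those of mouse 10. In mouse 7 both were lower in tumor 2, as was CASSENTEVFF (2.67% and 0.221%). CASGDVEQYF, already named for mouse 7, held 0.242% in tumor 1 and 0.0650% in tumor 2 in mouse 16, with the same nucleotide sequence in both mice. On the TCRα chain, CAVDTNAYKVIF (TRAV7-1/TRAJ30) held 3.49% in tumor 1 and 2.58% in tumor 2 in mouse 7 and 0.153% in tumor 1 and 1.45% in tumor 2 in mouse 10, with main sequences that differ by 1 base.

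Of the largest clonotypes, 23 of 39 for TCRβ and 24 of 44 for TCRα were also listed in at least 1 other mouse of the series. In 6 and 6 of these they reached at least 1% there, as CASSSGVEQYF did in untreated mouse 17 (4.95%), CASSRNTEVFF in mouse 11 (7.04%), which received 0.5 mg/kg, and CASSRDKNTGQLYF (TRBV17/TRBJ2-2, 1.36% in tumor 1 and 1.11% in tumor 2 of mouse 16) in mouse 3 (13.6%), also at 0.5 mg/kg. In 11 and 9, however, the highest share elsewhere was below 0.01%, and in 9 and 5 of those every other mouse had the identical main nucleotide sequence, as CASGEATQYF had in 10 other mice. Such traces amounted to a median of 0.0239% (TCRβ) and 0.0367% (TCRα) of the share in the mouse where the clonotype was large, and at most 1.08% and 0.335%. Carry-over between libraries and a receptor made by several mice cannot be told apart for them. Within a mouse, the lower share of a dominant clonotype was a median of 39.7% and 28.8% of the higher, and at least 1.04% and 0.352%, so that the ranges overlapped for TCRβ and nearly met for TCRα.

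Tumor 2 had fewer clonotypes than tumor 1 in all 3 mice, and at equal depth a more uneven repertoire apart from the TCRβ Shannon index of mouse 16, although with 3 pairs the sign-flip test used for these measures cannot pass the threshold of 0.05. For these measures random draws brought each library down to 63291 TCRβ or 26623 TCRα counts, the depth of the smallest library of the series. Mouse 7 then had 2587 TCRβ clonotypes in tumor 1 and 777 in tumor 2, mouse 10 2146 and 1607, and mouse 16 1383 and 1059. As a log2 ratio, tumor 2 over tumor 1, this came to -0.85 ± 0.77 (SD, n = 3 mice) for TCRβ and -0.95 ± 0.81 for TCRα. Mouse 7 carried much of it: without that mouse the values were -0.40 and -0.48, and with a minimum of 1 count in place of 2 they were -0.48 and -0.54. The normalized Shannon index differed by -0.0656 ± 0.0679 for TCRβ, where it was lower in tumor 2 of 2 of the 3 mice, and by -0.0781 ± 0.0840 for TCRα, where it was lower in all 3. The Gini coefficient, which is 0 when all clonotypes are of equal size, was at equal depth higher in tumor 2 of all 3 mice on both chains, by 0.0390 ± 0.0327 and 0.0527 ± 0.0497. Without thinning, the Gini differences were 0.0234 and 0.0216 and not all of 1 sign: the TCRβ coefficient of mouse 16 was 0.970 in tumor 1 and 0.965 in tumor 2, and the TCRα coefficient of mouse 7 was 0.880 and 0.857. The TCRα Shannon index of mouse 7 then turned as well, at 0.619 in tumor 1 and 0.641 in tumor 2. Without mouse 10 the Shannon differences were -0.0307 and -0.0324 and the Gini differences 0.0218 and 0.0247. In the two-sided exact sign-flip permutation test p was 0.25 for these measures, except 0.5 for the TCRβ Shannon index, and 0.25 is the smallest p that 3 pairs can give; adjusted over the 6 measures the values were 0.3 and 0.5. With near-identical sequences merged, the log2 ratios of clonotype numbers were -1.10 and -1.15.

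The overlap between the tumors of a mouse varied more for TCRβ than for TCRα. The TCRβ values of the Morisita-Horn index for mice 7, 10 and 16 were 0.547, 0.828 and 0.939, and those for TCRα 0.878, 0.878 and 0.827. The TCRβ leader changed in mice 7 and 10 and not in mouse 16. The mean for TCRα was 0.861 ± 0.0297 (SD, n = 3), against 0.442 ± 0.328 in the untreated time-separated mice, 0.533 ± 0.193 at 0.5 mg/kg and 0.966 ± 0.0242 in the time-matched mice. The 3 values at 2 mg/kg lay above all values of the former groups and below all values of the last. The exact permutation p was 0.1 in each case, the smallest that 3 against 3 mice allow, and 0.2 after adjustment over 12 comparisons of overlap. For TCRβ the mean was 0.772 ± 0.202, against 0.720 ± 0.198 in the untreated time-separated mice (exact permutation p = 1) and 0.599 ± 0.110 at 0.5 mg/kg (exact permutation p = 0.3, adjusted 0.327), and these groups overlapped. The time-matched mice, at 0.984 ± 0.0153, all lay above the mice given 2 mg/kg (exact permutation p = 0.1, adjusted 0.2). The private share, the mean over both tumors of the share of counts in clonotypes of 1 tumor, was 13.4%, 14.8% and 4.72% for TCRβ in mice 7, 10 and 16, and 17.0%, 18.9% and 13.0% for TCRα. Its means of 11.0% and 16.3% were below those at 0.5 mg/kg (18.8% and 24.7%), without overlap between the mice of these groups (exact permutation p = 0.1 on each chain, adjusted 0.2). The untreated time-separated mice had means of 25.0% and 34.9% (exact permutation p = 0.3 and 0.2, adjusted 0.327 and 0.3), and the time-matched mice of 5.96% and 9.21% (the same p), and the ranges overlapped with those at 2 mg/kg in each case.

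TRBV17 took a larger part of tumor 2 than of tumor 1 in all 3 mice, and TRBV13-3 a smaller one. TRBV17, the segment of the leading clonotypes described above, went from 15.6% in tumor 1 to 26.5% in tumor 2 of mouse 7, from 29.8% in tumor 1 to 38.2% in tumor 2 of mouse 10, and from 11.8% to 18.5% in mouse 16, a mean difference of 8.63 ± 2.13 percentage points (SD, n = 3). TRBV13-3 went from 13.3% in tumor 1 to 8.37% in tumor 2 of mouse 7, from 5.30% in tumor 1 to 0.757% in tumor 2 of mouse 10, and from 8.90% to 2.80% in mouse 16, a mean difference of -5.18 ± 0.816 points. They were the only TRBV segments that moved the same way by at least 2 points in all 3 mice. In the untreated time-separated mice TRBV17 was higher in tumor 2 as well. It went from 7.85% to 8.21% in mouse 4, from 25.1% to 28.7% in mouse 17 and from 21.1% to 42.8% in mouse 19. At 0.5 mg/kg it was higher in tumor 2 of mice 3 (19.2% and 21.9%) and 20 (32.5% and 40.0%) and lower in mouse 11 (36.2% and 18.9%). Of the time-matched mice, it was higher in tumor 2 of mouse 6 and lower in mice 12 and 14. Counting each clonotype once, TRBV17 went from 8.58% in tumor 1 to 15.1% in tumor 2 of mouse 7, from 13.3% in tumor 1 to 21.2% in tumor 2 of mouse 10, and from 12.9% to 15.6% in mouse 16. Of all clonotypes, the TRBV17/TRBJ2-7 family of 11 residues made up 2.33% in tumor 1 and 11.6% in tumor 2 of mouse 7. In mouse 10 it made up 2.80% and 7.77%, and in mouse 16 4.69% and 5.69%. Near-identical sequences are included in these shares, so they are not independent of the size of the leading clonotypes. In edgeR's quasi-likelihood test with the mouse as a block, the log2 ratio of TRBV17 was 0.59 ± 1.02 (SE, adjusted p = 0.944) by counts and 0.58 ± 0.36 (adjusted p = 0.456) by clonotypes, and that of TRBV13-3 -1.71 ± 1.09 (adjusted p = 0.490) by counts, so neither passed. None of the 25 TRBV segments tested did by counts or by clonotypes (0% called, 3 and 3 with an unadjusted p under 0.05, and 0 called by DESeq2). By counts, 1 TRBV segment was higher in tumor 2 of all 3 mice and 6 were lower in all 3. TRBV29 moved among the most by clonotypes, and went from 5.33% in tumor 1 to 7.98% in tumor 2 of mouse 7, from 6.69% in tumor 1 to 12.6% in tumor 2 of mouse 10, and from 2.69% to 1.58% in mouse 16. TRBV5 was lower in tumor 2 of every mouse by counts, from 4.85% in tumor 1 to 0.914% in tumor 2 of mouse 7, from 6.11% in tumor 1 to 1.78% in tumor 2 of mouse 10, and from 1.01% to 0.639% in mouse 16.

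**Figure D4:**
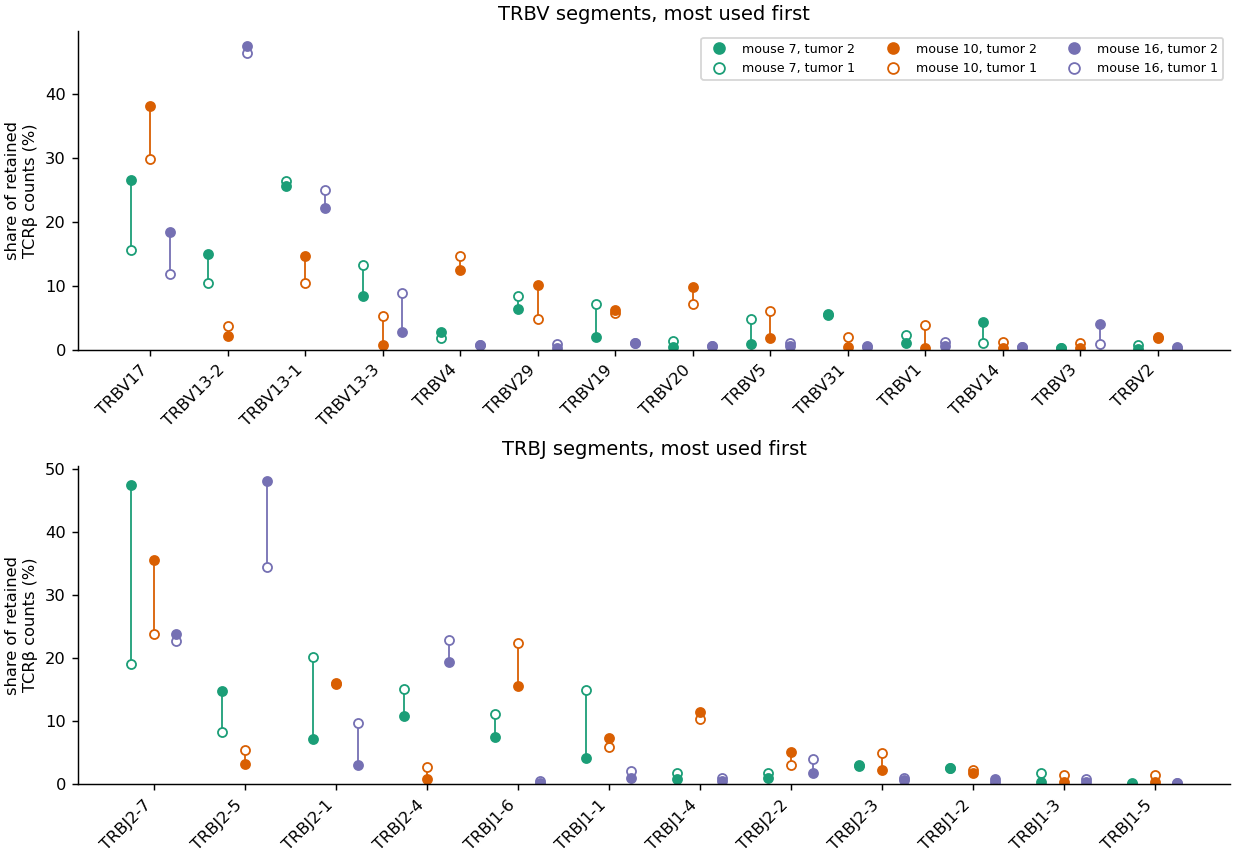
Share of retained TCRβ counts (vertical axis, percent) of the 14 most used TRBV segments (above) and of the TRBJ segments (below), with open circles for tumor 1 and filled circles for tumor 2, joined within each mouse. The filled circle lies above the open one in all 3 mice for TRBV17 and TRBJ2-7 and below it in all 3 for TRBV13-3.

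Among the joining segments of the β chain, TRBJ2-7 went from 19.1% in tumor 1 to 47.5% in tumor 2 of mouse 7, from 23.8% in tumor 1 to 35.6% in tumor 2 of mouse 10, and from 22.7% to 23.8% in mouse 16, and TRBJ2-1 from 20.1% in tumor 1 to 7.17% in tumor 2 of mouse 7, from 16.1% in tumor 1 to 15.9% in tumor 2 of mouse 10, and from 9.74% to 2.99% in mouse 16. Counting each clonotype once, TRBJ2-7 went from 18.6% in tumor 1 to 30.8% in tumor 2 of mouse 7, from 21.5% in tumor 1 to 26.4% in tumor 2 of mouse 10, and from 18.3% to 20.7% in mouse 16, and it was the only TRBJ segment to move the same way by 2 points or more in all 3 mice. The TRBV17/TRBJ2-7 family is part of these clonotypes, and near-identical sequences are included. TRBJ2-7 did not pass the test (log2 ratio 0.40 ± 0.23, SE, edgeR adjusted p = 0.364). TRBJ2-5, the segment of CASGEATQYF and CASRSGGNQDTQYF, went from 8.31% in tumor 1 to 14.7% in tumor 2 of mouse 7, from 5.51% in tumor 1 to 3.22% in tumor 2 of mouse 10, and from 34.5% to 48.1% in mouse 16. Of 12 TRBJ segments, TRBJ1-3 passed the test by counts (8.33% called) and none by clonotypes (0% called, 2 with an unadjusted p under 0.05, 0 by DESeq2). It is a minor segment, and it went from 1.8% in tumor 1 to 0.385% in tumor 2 of mouse 7, from 1.55% in tumor 1 to 0.386% in tumor 2 of mouse 10, and from 0.924% to 0.422% in mouse 16, a log2 ratio of -1.79 ± 0.49 (SE, edgeR adjusted p = 0.0152). The median log2 ratio of all TRBJ segments was -0.65, so part of its ratio was common to most segments. With TMM scaling, which shifted that median to 0.25, its ratio was -0.90 and the call was lost (adjusted p = 0.475), as it was without mouse 7 (adjusted p = 0.542) and without mouse 16 (0.0730). By cluster, TRBJ1 segments together held 32.7% of tumor 1 and 15.7% of tumor 2 of mouse 7. In mouse 10 they held 43.8% and 37.1%, and in mouse 16 5.07% and 3.31%. They were lower in tumor 2 of all 3 mice, by 8.50 ± 7.75 points (exact sign-flip permutation p = 0.25), with TRBJ2 segments higher to match. The TRBV13 family was lower by 3.64 ± 3.74 points, again in all 3 mice (p = 0.25 in the same exact permutation test). By clonotypes it moved by -0.416 ± 3.41 points, and was higher in tumor 2 of mouse 7 by 3.28 points. Segments whose T cells are deleted by endogenous viral superantigens in BALB/c mice (TRBV12-1, TRBV12-2, TRBV15, TRBV16 and TRBV26) held at most 2.12% of any of the 6 tumors and were lower in tumor 2 of all 3 mice, by 0.627 ± 0.697 points (exact sign-flip permutation p = 0.25).

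On the α chain no V segment moved the same way by 2 points in all 3 mice. The TRAV segments that moved most were each carried by 1 mouse: TRAV16D/DV11 went from 0.221% in tumor 1 to 0.413% in tumor 2 of mouse 7, from 1.32% in tumor 1 to 2.71% in tumor 2 of mouse 10, and from 3.91% to 12.9% in mouse 16, TRAV9-2 from 2.93% in tumor 1 to 0.680% in tumor 2 of mouse 7, from 2.07% in tumor 1 to 0.139% in tumor 2 of mouse 10, and from 1.64% to 11.2% in mouse 16, and TRAV3-3 from 7.92% in tumor 1 to 4.83% in tumor 2 of mouse 7, from 25.0% in tumor 1 to 35.2% in tumor 2 of mouse 10, and from 2.78% to 1.02% in mouse 16. The clonotypes named above for mice 16 and 10 use these segments. By counts, 1 TRAV segment was higher in tumor 2 of all 3 mice and 17 were lower. By clonotypes, TRAV7-1 went from 2.70% in tumor 1 to 1.55% in tumor 2 of mouse 7, from 0.614% in tumor 1 to 1.57% in tumor 2 of mouse 10, and from 1.24% to 5.76% in mouse 16. None of 74 TRAV segments passed by counts (0% called, 4 with an unadjusted p under 0.05; DESeq2 called TRAV8-1) or by clonotypes (0%, 5 unadjusted, 0 by DESeq2). TRAJ13, the segment of the TRAV3-3 family of mouse 10, went from 7.74% in tumor 1 to 12.2% in tumor 2 of mouse 7, from 22.3% in tumor 1 to 33.5% in tumor 2 of mouse 10, and from 0.376% to 0.276% in mouse 16. By clonotypes TRAJ13 was the only TRAJ segment higher in tumor 2 of all 3 mice, from 3.51% to 7.57% in mouse 7, 8.35% to 13.6% in mouse 10 and 0.708% to 1.21% in mouse 16, and it did not pass the test (log2 ratio 0.86 ± 0.44, SE, edgeR adjusted p = 0.673). TRAJ49 went from 6.53% in tumor 1 to 13.0% in tumor 2 of mouse 7, from 1.54% in tumor 1 to 3.11% in tumor 2 of mouse 10, and from 7.59% to 3.46% in mouse 16, and TRAJ53 from 9.92% in tumor 1 to 16.3% in tumor 2 of mouse 7, from 1.56% in tumor 1 to 0.117% in tumor 2 of mouse 10, and from 17.2% to 20.3% in mouse 16. Of 43 TRAJ segments, TRAJ38 passed by counts (2.33% called) and none by clonotypes (0% called, 2 with an unadjusted p under 0.05, 0 by DESeq2). TRAJ38 was rare, and went from 0.318% in tumor 1 to 0.0526% in tumor 2 of mouse 7, from 0.375% in tumor 1 to 0.0452% in tumor 2 of mouse 10, and from 0.0824% to 0% in mouse 16, with a log2 ratio of -3.86 ± 1.10 (SE, edgeR adjusted p = 0.0312) against a median of -0.93 over TRAJ segments. It lost the call with TMM scaling (adjusted p = 0.925) and without any 1 of the mice (adjusted p = 0.111 without mouse 7, 0.675 without mouse 10 and 0.301 without mouse 16). TRAJ segments numbered 33 and above, the ones nearer to the V segments, moved by 8.61, -6.87 and -1.81 points in mice 7, 10 and 16, with no common direction (mean -0.0219 ± 7.89, exact sign-flip permutation p = 1). Segments numbered below 33 are the complement. TRAJ32, just below, went from 1.56% in tumor 1 to 0.583% in tumor 2 of mouse 7, from 3.73% in tumor 1 to 1.19% in tumor 2 of mouse 10, and from 3.31% to 7.52% in mouse 16 by clonotypes.

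The TCRβ CDR3 was shorter in tumor 2 of all 3 mice when weighted by counts. Its mean length in tumors 1 and 2 was 13.4 and 12.9 residues for mouse 7, 13.5 and 12.9 for mouse 10, then 12.5 and 12.3 for mouse 16, a difference of -0.422 ± 0.201 (SD, n = 3). CDR3s of at most 11 residues held 23.6% and 36.8% of the tumors of mouse 7, 10.9% and 26.8% of mouse 10, and 55.0% and 56.2% of mouse 16. With each clonotype counted once, the mean length was also lower in tumor 2 of each mouse, by 0.257 residues on average. The residues between the first 3 and the last 3 were less hydrophilic in tumor 2 of all 3 mice, by 0.116 ± 0.0836 on the Kyte-Doolittle scale, on which higher is more hydrophobic. After removal of the largest clonotype of every mouse, the differences were -0.325 residues and 0.136. In the exact sign-flip permutation test p was 0.25 for both, the smallest possible, and 0.75 after adjustment over 6 CDR3 measures. The net charge of the TCRβ loop and all 3 measures of TCRα had no common direction over the mice.

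**Figure D5:**
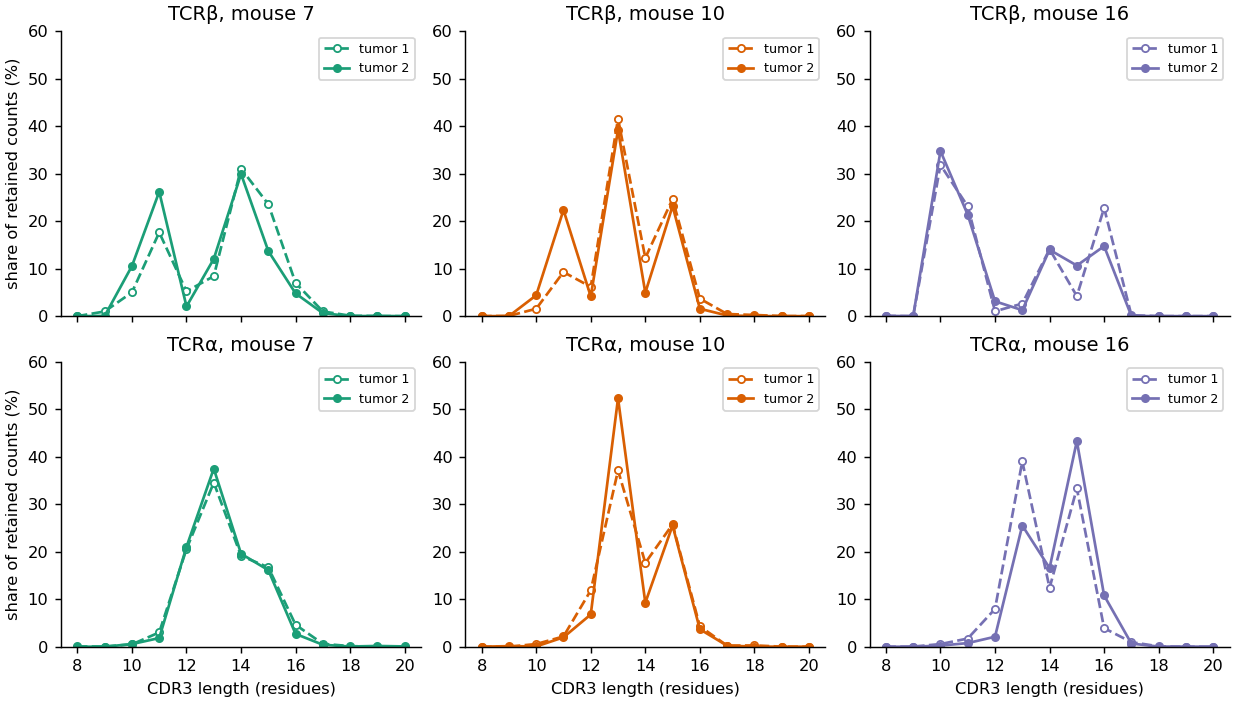
Share of retained counts (vertical axis, percent) by CDR3 length (horizontal axis, residues) in tumor 1 (dashed lines, open circles) and tumor 2 (solid lines, filled circles) of each mouse, TCRβ above and TCRα below. The shares of TCRβ at 10 and 11 residues are higher in tumor 2 of mice 7 and 10, and the share at 16 residues is lower in tumor 2 of all 3 mice.

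Clonotypes kept in both tumors differed from those of 1 tumor in the same respects, each counted once at equal depth. Kept TCRβ clonotypes had a mean length of 13.5, 13.4 and 13.1 residues in mice 7, 10 and 16, against 13.7, 13.7 and 13.6 for those of 1 tumor. The difference was -0.365 ± 0.177 residues, and -0.387 with near-identical sequences merged. Their loops were less hydrophilic by 0.126 ± 0.0332 (0.0903 merged). Kept clonotypes were also found in another mouse of the series more often: 22.6% against 10.3% for TCRβ, a difference of 12.3 ± 3.8 points, and 33.9% against 19.2% for TCRα, a difference of 14.7 ± 5.34 points. Kept clonotypes were larger, as the sizes above show, and the traces of large clonotypes in other mice enter this count, whose part in the difference was not tested. All of these had the same sign in the 3 mice, with an exact sign-flip permutation p of 0.25 and 0.357 after adjustment over 10 measures. The number of nucleotide sequences per clonotype was among the 10 but is not compared, since it rises with the counts of a clonotype. Kept TCRα clonotypes had a lower net charge in all 3 mice, by 0.134 ± 0.110, with the same p. They differed in length by 0.0413 ± 0.116 residues, with both signs among the mice.

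Invariant T cells contributed little. The canonical α chain of invariant natural killer T cells, TRAV11 with TRAJ18 and a fixed CDR3 of 15 residues, had 0 counts in all 6 tumors, which allows at most 0.0113% in the shallowest and 0.00127% in the deepest. Other clonotypes that join TRAV11 or its copies to TRAJ18 held 0.0220% to 0.602%, in 1 to 8 clonotypes. TRAV1 with TRAJ33, the chain of mucosal-associated invariant T cells, held at most 0.154% (tumor 2 of mouse 7, 41 counts) and had 0 counts in tumor 1 of mouse 16, which allows at most 0.00139%.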

How the data were processed

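T cell receptor transcripts were amplified by the authors from RNA of whole tumors with a SMART-Seq mouse TCR kit that adds molecular identifiers, sequenced, and assigned to V and J segments and CDR3 with Cogent NGS Immune Profiler. The deposited tables list each TCRα or TCRβ sequence with a read count, not normalized. The file headers and the study's text call the counts reads, and its methods name an analysis based on the identifiers. Whether reads of 1 identifier were merged, and the genome build, are not given in the sources used here. PCR reads are not independent molecules, so intervals and floors cover counting error only.

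Sequences with an empty stop codon field and at least 2 counts were retained, in python 3.11.15 with pandas 2.3.3, numpy 2.4.6 and scipy 1.17.1, and summed by CDR3 residues, V and J. Sequences of the other chain made up at most 251 counts of a library and were kept in its total. Samples were grouped by the treatment and tumor labels, and paired by mouse, since both tumors are of the same animal. For numbers of clonotypes, evenness and overlap, each library was reduced by random draws to the depth of the smallest in the series (mean of 20 draws). Paired differences were tested with two-sided exact sign-flip permutation tests over 3 mice, and overlap between groups with two-sided exact permutation tests of 3 against 3 mice, with Benjamini-Hochberg adjustment within each family. Segments with at least 10 counts in a library were tested with edgeR 4.0.16 (R 4.3.3, quasi-likelihood test, mouse as a block, total retained counts as library size, 1 common dispersion, Benjamini-Hochberg adjustment). DESeq2 1.42.0 was an alternative. Scripts were tested on simulated data.

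Named for each mouse and chain were the 5 largest clonotypes of either tumor, the largest gain and loss in share among the 10 largest, the largest in 1 tumor only and the dominant one found in most other mice; other dominant, related and recurrent clonotypes, and the TRBV17/TRBJ2-7 family, were chosen after their values were seen. Named segments passed the test, were among the 3 with the largest mean absolute difference or moved by 2 points in all mice. The members and the segment lists (superantigen-deleted TRBV, TRBV13 family, TRBJ1 and TRBJ2, TRAJ by position, invariant chains) were chosen with earlier results of these data known. Of the segment names listed in the 6 libraries, before the filter, 25 of 25 TRBV, 12 of 12 TRBJ, 85 of 86 TRAV and 43 of 43 TRAJ matched a RefSeq symbol. Alternatives covered minimum counts, depth, clonotype definition, the number of largest clonotypes, normalization, filters, the pairing and leaving out each mouse; merging of near-identical sequences and grouping of TRAV segments by family were chosen after seeing the data. CDR3 sequences of 15 or more residues are not spelled out.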

Additional observations from a re-analysis of the deposited data

Results flagged for a closer look

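Non-functional sequences, with a stop codon or out of frame, entered no comparison. Their share of TCRα counts was higher in 3 of the 6 tumors than in any tumor of the untreated time-separated mice. The highest there was 14.5%. In the 3 tumors the share was 21.8% (tumor 2 of mouse 7), 27.7% (tumor 1 of mouse 16) and 24.2% (tumor 2 of mouse 16). Untreated time-matched mouse 6 had 25.3% in tumor 1 and 24.4% in tumor 2, within the range of these tumors. The tumors of time-matched mice 12 and 14 had 8.99% to 13.5%. The other 3 tumors of the mice given 2 mg/kg had 14.1% (tumor 1 of mouse 7), 11.8% and 12.1% (tumors 1 and 2 of mouse 10). On the TCRβ chain the share was 6.78% to 8.78% in the 6 tumors.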

How the results depend on the processing

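The clonotypes named as the largest gain and loss of each mouse and chain kept their direction under every alternative run, and so did the means over mice of clonotype number, evenness, TCRβ length and hydropathy, and the share found in other mice. The mean number of TCRβ clonotypes found in both tumors, 467 at equal depth, was 748 without thinning, 711 thinned to the smaller library of the mouse, 142 with a minimum share of 0.01% and 240 with near-identical sequences merged; for TCRα it was 312, and 497, 471, 181 and 203. The TCRα share of counts in clonotypes of both tumors was 83.7%, and 80.6% without the largest clonotype of each mouse. The median absolute log2 ratio of the largest clonotypes was 1.48 and 1.84, and 0.71 and 1.24 for the 5 largest. Differences that changed sign were small: TCRβ charge by counts (-0.0379; 0.0505 with each clonotype counted once, -0.0828 to 0.0142 leaving out each mouse in turn), TCRα length by counts (0.142; -0.0479 to 0.241) and charge by counts (-0.0475; -0.136 to 0.0399), and, for clonotypes of both tumors minus those of 1 tumor, TCRβ charge (0.0691; -0.0165 with a minimum of 1 count, -0.0251 to 0.131), TCRα length (0.0413; -0.00594 merged, -0.0119 to 0.103) and TCRα hydropathy (-0.00247; 0.00437 with clonotypes by nucleotides, 0.0136 at a minimum share of 0.01%, -0.0422 to 0.0206). The TCRβ overlap minus that of the untreated time-separated mice, 0.0519, was -0.0319 to 0.164. Of TRBJ segments by counts, 0 were called with TMM, 0 at a mean share of at least 1%, 0 without the mouse as a replicate block (smallest adjusted p = 0.283 by edgeR) and 0 to 3 leaving out each mouse (TRBJ1-1, TRBJ1-3 and TRBJ2-1 without mouse 10). Of TRAJ segments by counts, 0 were called with TMM, 0 at a mean share of at least 1%, 0 without the block, 0 with a minimum of 1 count and 0 to 0 leaving out each mouse. By clonotypes, 1 TRBJ segment (TRBJ1-3) was called with a minimum of 1 count, 1 TRAJ segment (TRAJ13) with merging and 3 TRAV families (TRAV1, TRAV8 and TRAV10), and by counts 1 TRAV segment with DESeq2 (TRAV8-1) and 1 with a minimum of 1 count (TRAV13D-2). The causes were not tested. The pairing by mouse changed no other call. With 3 mice and 1 library per tumor and chain the sign-flip test cannot pass 0.05, and in the shallowest TCRα library a count of 0 allows a share of up to 0.0113%.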
